A study of Mus musculus with 5 samples.

Results

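The genes described here are the core of the transforming growth factor beta (TGF-beta) pathway in 4T1 cells growing as lung metastases. There are 10 of them, listed by their roles in the pathway: the ligands Tgfb1, Tgfb2 and Tgfb3, the receptors Tgfbr1 and Tgfbr2, the signal-carrying Smads Smad2, Smad3 and Smad4, and the inhibitors Smad7 and Skil. All 10 are among the 23771 genes of the deposited table for cancer cells, and 9 of them passed a detection minimum, which 10201 genes passed in all. To pass, a gene needed a UMI (unique molecular identifier, 1 captured RNA molecule) in 10% or more of cancer cells in 1 library or both. The gene below that minimum was Tgfb2.

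The 4T1 line is a mouse mammary carcinoma that grows in BALB/c mice, and the cells used carried CD90.1, a surface protein introduced with a lentiviral vector as a reporter. Female BALB/c mice received, from 6 weeks of age, 3 intravenous injections per week for 3 weeks of either medium holding tumor-secreted factors (TSF) or control medium (CM), after which every mouse received 25000 of these 4T1 cells intravenously. The table compares the cancer cells of the lungs taken 16 days later, at 11 weeks of age. Lungs of 3 mice were pooled into 1 library for each treatment, so there was 1 library per group. No test of TSF against CM was possible, and a difference below is a difference between 2 libraries, without an estimate of how much mice or library preparations vary.

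TGF-beta ligands are secreted in a latent form that is bound to the matrix, and once released they bring together the type II receptor Tgfbr2 and the type I receptor Tgfbr1. The activated type I receptor phosphorylates Smad2 and Smad3, which join Smad4 and enter the nucleus, where they switch genes on or off. Smad7 blocks the receptor and Skil (SnoN) represses Smad complexes on DNA, and both are themselves target genes of the pathway. In mammary carcinoma cells the pathway is known both for restraining growth and for driving matrix production, loss of epithelial character and spread to the lung. RNA levels say nothing of ligand release or of Smad phosphorylation.

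The TSF library held 139 cancer cells and the CM library 29. The median cancer cell had 26615 UMIs in TSF and 27679 in CM, and no cell barcode was shared between the cancer cells of both libraries. The lowest totals were 909 UMIs in TSF and 973 in CM, and 8 of 29 CM cells but 14 of 139 TSF cells had fewer than 10000 UMIs. Levels are given as mean CP10k, the UMIs of a gene per 10000 UMIs of a cell, averaged over the cancer cells of a library. In this mean every cell counts equally, so a UMI in a shallow cell weighs more than one in a deep cell. One UMI added 0.0125 to the CM mean in a cell of median weight and 0.354 in the shallowest CM cell, against 0.00270 and 0.0791 in TSF. The next shallowest CM cell had 5962 UMIs.

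**Figure D1:**
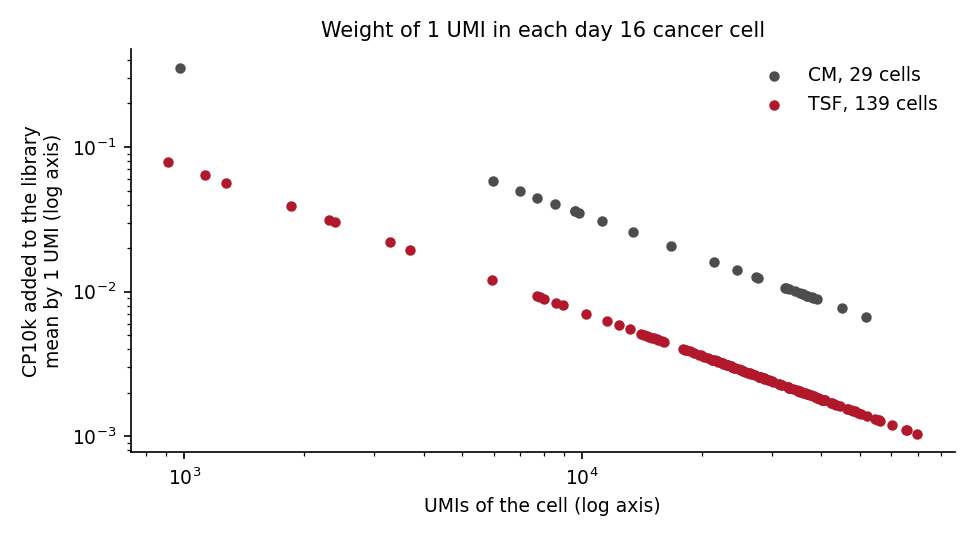
Each point is 1 cancer cell of day 16, with its UMI total on the x axis and the CP10k that 1 UMI in it adds to the mean of its library on the y axis, both on log scales, for CM (grey, 29 cells) and TSF (red, 139 cells). The CM cell with 973 UMIs stands apart at 0.354, above every other cell of both libraries.

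The keratins Krt8 and Krt18 were present in nearly every cell, but 4 of 8 carcinoma markers were higher in TSF by at least 1.5-fold, and the shares of 2 of them differed past their intervals. Krt8 had a UMI in 137 of 139 TSF cells and 29 of 29 CM cells, and Krt18 in 138 and 28. Krt7 was seen in 85 and 18 cells and Krt19 in 53 and 9. The reporter CD90.1 was seen in 48 TSF cells (34.5%, exact 95% interval 26.7 to 43.1) and 2 CM cells (6.90%, 0.846 to 22.8). Epcam, an epithelial adhesion protein, was seen in 95 TSF cells (68.3%, 59.9 to 76.0) and 8 CM cells (27.6%, 12.7 to 47.2), and its mean CP10k was 1.28 and 0.195. In both libraries most cells therefore had no UMI of the reporter. Of the 5 markers of all leukocytes, each had 0 UMIs in CM, and their summed level was 0.07 CP10k in TSF. Of the 5 fibroblast markers, Pdgfra had a UMI in 63 TSF and 13 CM cells and Dcn in 16 and 2, while Col1a1, Col1a2 and Col3a1 had none in CM. Fibroblasts are a rich source of TGF-beta receptors and ligands, and the fibroblast markers summed to 1.07 CP10k in TSF and 0.50 in CM. The highest sums of the other lists were 1.07 CP10k for neutrophils in TSF and 0.40 for alveolar cells in CM. In TSF, S100a8 was seen in 2 cells, S100a9 in 4, Retnlg in 2, Csf3r in 7 and Cxcr2 in 10, and all 5 were at 0 in CM. Of the alveolar markers, Sftpa1 was at 0.363 CP10k in 2 CM cells and at 0 in TSF. Rtkn2 was seen in 14 TSF and 3 CM cells and Ager in 1 TSF cell, while Sftpc, Sftpb and Lamp3 were at 0 in both libraries. The part of other cells in the levels below was not tested.

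Across the pathway core, most levels were lower in the TSF library, and the number that were lower by at least 1.5-fold was near the share seen among all genes. The mean CP10k was lower in TSF for 7 of the 9 genes past the minimum, against 59.7% of all genes, and higher for 2 of 9, against 40.3%. It was lower by at least 1.5-fold for 3 of 9 (Tgfbr1, Smad2 and Smad7), against 29.8% of all genes, and higher by at least 1.5-fold for 0 of 9, against 16.0%. The median log2 ratio of TSF over CM was -0.37 over the 9 genes and -0.19 over the 10201. With ratios centred on the median of all genes, 22.2% of genes were lower by at least 1.5-fold and 21.7% higher, and 2 of the 9 were lower (Tgfbr1 and Smad2), Smad7 being at a ratio of 0.721. The 10 genes together summed to 4.67 CP10k in TSF and 6.53 in CM.

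The share of cells with a UMI gave another picture. It was higher in TSF for 4 of the 9 genes (Tgfbr1, Tgfbr2, Smad3 and Skil), against 49.1% of all genes, and mean level and share pointed opposite ways for 4 of 9 (Tgfb3, Tgfbr1, Smad3 and Skil), against 21.6%. The ratio of shares, TSF over CM, lay between 0.770 and 1.30 for the 9 genes. For all 10 genes the exact 95% intervals of both shares overlapped. How often they overlap among all genes was not computed, so this is not a result about the 10 genes. These intervals cover counting error only. With 29 CM cells they are wide, and whether the shares differ by the sizes seen here could not be told. The shares could not be thinned to equal depth without the counts of single cells, and the background share in cells that do not express each gene was not analysed here.

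**Figure D2:**
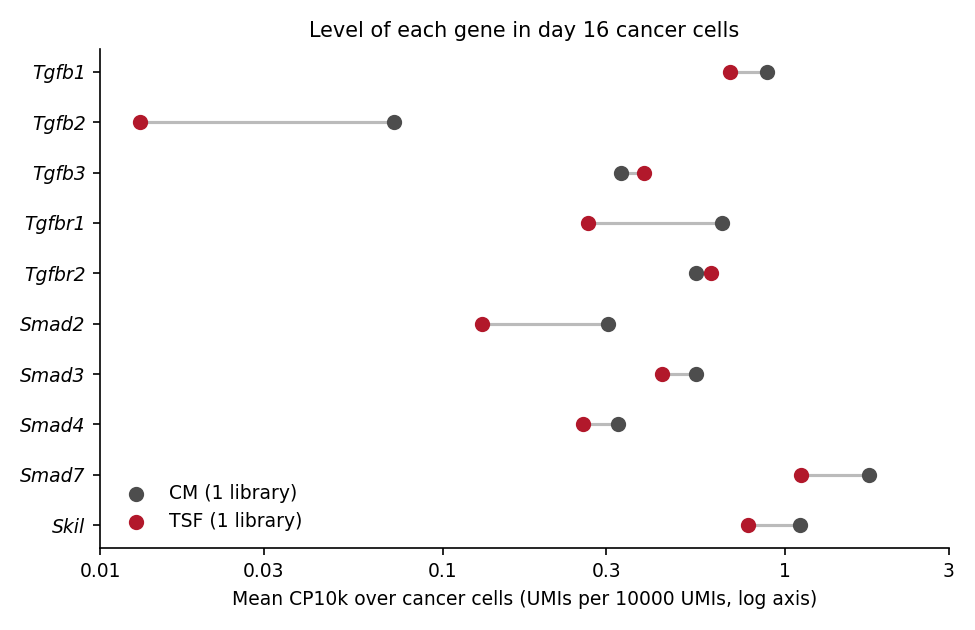
Points give the mean CP10k of each of the 10 genes over the day 16 cancer cells, on a log axis, with 1 library each for CM (grey) and TSF (red) and a line joining both. TSF lies left of CM for every gene except Tgfb3 and Tgfbr2.

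**Figure D3:**
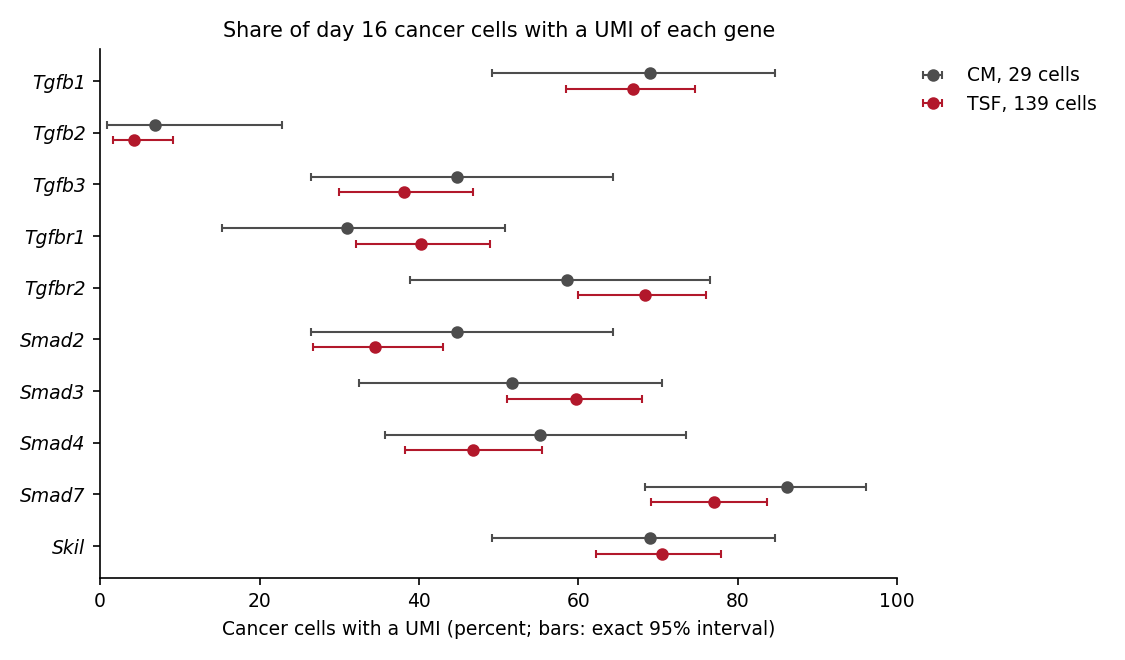
Points give the percent of day 16 cancer cells with a UMI of each gene in CM (grey, 29 cells) and TSF (red, 139 cells), and bars the exact 95% interval, which covers counting error only. The bars of both libraries overlap for each of the 10 genes, and how often they do so among all genes was not computed.

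Among the ligands, Tgfb1 and Tgfb3 were present in both libraries and Tgfb2 was rare. Tgfb1 (ENSMUSG00000002603, GRCm38 chromosome 7, 25687002 to 25705077), the main ligand of tumors and of the lung, was seen in 93 of 139 TSF cells (66.9%, 58.4 to 74.6) and 20 of 29 CM cells (69.0%, 49.2 to 84.7). Its mean level was 0.688 CP10k in TSF and 0.887 in CM, a ratio of 0.775. The shares were nearly equal, and the lower TSF mean came with a lower level per cell with a UMI, 1.03 against 1.29 CP10k.

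Tgfb3 (ENSMUSG00000021253, chromosome 12, 86056745 to 86079041), a ligand with roles in epithelial fusion and matrix, was seen in 53 TSF cells (38.1%, 30.0 to 46.7) and 13 CM cells (44.8%, 26.4 to 64.3). The mean level of Tgfb3 was 0.387 CP10k in TSF and 0.332 in CM, a ratio of 1.16. It was thus higher in TSF by level and lower by share, and it was the only one of the 9 genes whose level per cell with a UMI was higher in TSF, at 1.01 against 0.741 CP10k. Ttll5, a coding gene on the other strand, overlaps the Tgfb3 locus.

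Tgfb2 (ENSMUSG00000039239, chromosome 1, 186622792 to 186705989), the third ligand, which needs a co-receptor to bind well, was seen in 6 TSF cells (4.32%, 1.6 to 9.16) and 2 CM cells (6.90%, 0.846 to 22.8). The mean was 0.0131 CP10k in TSF and 0.0719 in CM. A ratio of 0.182 from 6 and 2 cells was not read as a difference.

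The receptors differed from each other. Tgfbr1 (ENSMUSG00000007613, chromosome 4, 47353222 to 47414931), the type I receptor kinase that phosphorylates Smads, had a mean level of 0.265 CP10k in TSF and 0.652 in CM, a ratio of 0.406. It was nevertheless seen in a larger share of TSF cells, 56 of 139 (40.3%, 32.1 to 48.9), than of CM cells, 9 of 29 (31.0%, 15.3 to 50.8). The level and the share of Tgfbr1 therefore pointed opposite ways, with a share ratio of 1.30. Per cell with a UMI its level was 0.658 CP10k in TSF and 2.10 in CM, the widest such gap of the 9 genes.

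Tgfbr2 (ENSMUSG00000032440, chromosome 9, 116084293 to 116175360), the type II receptor that binds ligand first, was seen in 95 TSF cells (68.3%, 59.9 to 76.0) and 17 CM cells (58.6%, 38.9 to 76.5). The mean was 0.607 CP10k in TSF and 0.548 in CM, a ratio of 1.11. It was the only one of the 9 genes that was higher in TSF by both measures, and in both the gap was small.

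The receptor-regulated Smads carry the signal from the receptor to the nucleus. Smad2 (ENSMUSG00000024563, chromosome 18, 76241580 to 76310963) was seen in 48 TSF cells (34.5%, 26.7 to 43.1) and 13 CM cells (44.8%, 26.4 to 64.3). On average Smad2 stood at 0.131 CP10k in TSF and 0.304 in CM, a ratio of 0.429. Smad2 was lower in TSF by level, by share and per cell with a UMI, where it stood at 0.378 against 0.678 CP10k.

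Smad3 (ENSMUSG00000032402, chromosome 9, 63646767 to 63757994), which binds DNA itself and is tied to matrix genes, was seen in 83 TSF cells (59.7%, 51.1 to 67.9) and 15 CM cells (51.7%, 32.5 to 70.6). The mean of Smad3 was 0.435 CP10k in TSF and 0.547 in CM, a ratio of 0.795. Level and share again pointed opposite ways, and neither was past 1.5-fold. Smad4 (ENSMUSG00000024515, chromosome 18, 73639009 to 73703780), the common partner of both, was seen in 65 TSF cells (46.8%, 38.3 to 55.4) and 16 CM cells (55.2%, 35.7 to 73.6). Its mean level was 0.257 CP10k in TSF and 0.324 in CM, a ratio of 0.791. Smad4 was lower in TSF by both measures, and its level per cell with a UMI, 0.549 against 0.588 CP10k, was close in both libraries.

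The inhibitors were seen in most cells. Smad7 (ENSMUSG00000025880, chromosome 18, 75367529 to 75395935), which recruits ubiquitin ligases to the receptor, was seen in 107 TSF cells (77.0%, 69.1 to 83.7) and 25 CM cells (86.2%, 68.3 to 96.1). Its mean level was 1.11 CP10k in TSF and 1.76 in CM, a ratio of 0.633. Smad7 was lower in TSF by level, by share and per cell with a UMI, at 1.44 against 2.04 CP10k.

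Skil (ENSMUSG00000027660, chromosome 3, 31095058 to 31122577), the nuclear repressor, was seen in 98 TSF cells (70.5%, 62.2 to 77.9) and 20 CM cells (69.0%, 49.2 to 84.7). Its mean level was 0.779 CP10k in TSF and 1.1 in CM, a ratio of 0.705. The shares of Skil were nearly equal, and the gap lay in the level per cell with a UMI, 1.1 against 1.6 CP10k.

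The same was seen across the group. Per cell with a UMI the level was lower in TSF for 8 of the 9 genes, against 63.1% of all genes with such cells in both libraries. This measure moves with depth, since 1 UMI is worth 0.376 CP10k in TSF and 0.361 in CM in a cell of median depth, but 11.0 and 10.3 in the shallowest cell, which is 1 of 139 cells in TSF and 1 of 29 in CM. The deposited means do not say which cells held the UMIs, but their sums set limits. Summed over the 29 CM cells, Smad2 came to 8.82 CP10k, Smad4 to 9.41 and Tgfb3 to 9.64, each less than 1 UMI of the shallowest CM cell, so that cell held no UMI of these 3 genes. The low ratio of Smad2 therefore did not rest on it.

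For the other 6 genes the CM sum was larger than that UMI, and the limit was wide. For Tgfbr1 1 UMI in the shallowest CM cell would be 54.3% of the CM sum, and without it the CM mean would be 0.298 CP10k and the ratio 0.890. For Smad7 it would be 20.2% of the sum and the ratio 0.793. For Tgfb1, Smad3 and Skil the ratio would turn from below 1 to 1.29, 2.26 and 1.04, and for Tgfbr2 it would go from 1.11 to 3.14. With such a UMI left out wherever the sum allows it, 1 of the 9 genes (Smad2) would be lower in TSF by at least 1.5-fold. On the same terms 5 of 9 would be higher in TSF. Leaving a UMI out of CM alone can only raise a ratio, and the shallow TSF cells were left as they are. The same step was not run over all genes, so these counts are limits and not results about the 9 genes. Whether the shallowest CM cell held a UMI of these genes was not tested, since the counts of single cells were not used here.

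Against the spread of all genes, Tgfbr1 and Smad2 were towards the low end and the others near the middle. Of the 10201 genes past the minimum, 9.55% had a lower ratio than Tgfbr1, 10.9% a lower one than Smad2 and 26.4% a lower one than Smad7. The remaining 6 genes lay between 33.5% (Skil) and 71.2% (Tgfb3). The quartiles of the log2 ratios, over genes with a UMI in both libraries, were -0.70 and 0.30, and 7 of the 9 genes lay between them.

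**Figure D4:**
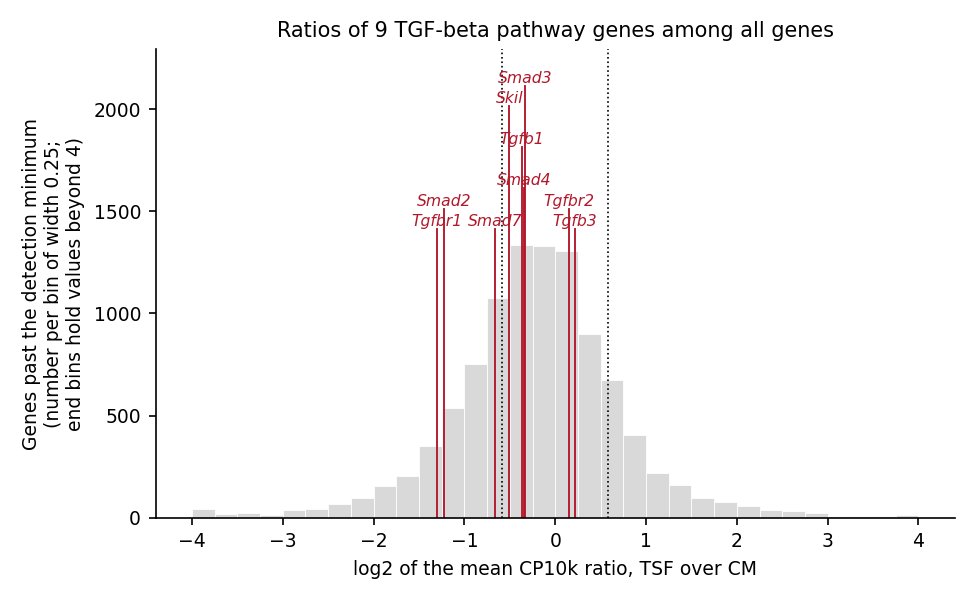
Grey bars count the genes past the minimum with a UMI in both libraries by the log2 ratio of mean CP10k, TSF over CM, red lines mark the 9 genes of the pathway core, and dotted lines mark a 1.5-fold difference either way. Tgfbr1 and Smad2 lie furthest left, at log2 ratios of -1.30 and -1.22, and no red line lies right of the upper dotted line.

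Around this core, 120 genes of the wider pathway were listed by role, and 119 of them were in the table. Of the 85 past the minimum, 18 were higher in TSF by at least 1.5-fold and 26 lower, which is 21.2% and 30.6%, against 16.0% and 29.8% of all genes. Their median log2 ratio was -0.12. After the same centring 20 were higher and 17 lower. A gene listed at 0 in one library is counted here as past the fold. The ratio without 1 UMI of the shallowest CM cell was worked out for the core genes only, and the same limit applies here.

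Genes of ligand storage and release (latency and activation) were split, with 3 of 11 higher and 3 lower. Ltbp2, a latent TGF-beta binding protein family member of the matrix, had the highest ratio of the 3 higher genes. It was seen in 114 TSF cells (82.0%, 74.6 to 88.0) and 12 CM cells (41.4%, 23.5 to 61.1), with 1.43 and 0.407 CP10k, a ratio of 3.52. Its share was higher in TSF with intervals that did not overlap. The intervals of its relative Ltbp3, named after its values were seen, did not overlap either. Ltbp3 was seen in 128 TSF cells (92.1%, 86.3 to 96.0) and 18 CM cells (62.1%, 42.3 to 79.3), at a ratio of 1.37. The intervals of their relatives Ltbp1 and Ltbp4 overlapped. Ltbp1 was at a ratio of 0.813, with shares of 73.4% in TSF and 72.4% in CM. Ltbp4 was at a ratio of 1.15, with a lower share in TSF, 32.4% against 44.8%.

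Co-receptors and receptor regulators were split as well, with 6 of 18 higher and 6 lower. Tgfbr3 (betaglycan), the co-receptor that presents ligand, was seen in 72 TSF cells (51.8%, 43.2 to 60.3) and 5 CM cells (17.2%, 5.85 to 35.8), with 0.436 and 0.0780 CP10k, a ratio of 5.60. Wwp1, a ubiquitin ligase that works with Smad7 at the receptor, was seen in 115 TSF and 18 CM cells, with 1.55 and 0.633 CP10k, a ratio of 2.45. Level and share of both genes were higher in TSF. The same held, by smaller gaps, for the signalling receptor Tgfbr2, while Tgfbr1 was higher by share only.

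Among nuclear partners and repressors of Smads, 0 of 10 were higher and 2 lower by at least 1.5-fold. These were Ep300, an acetyltransferase and coactivator, at 0.215 CP10k in TSF and 0.484 in CM, and Trim33, at 0.195 and 0.305, both named after their values were seen. Summed over the CM cells, Ep300 came to 14.0 CP10k and Trim33 to 8.83, against 10.3 for 1 UMI of the shallowest CM cell. Whether that cell held a UMI of Ep300 was not tested. In the BMP and activin branch, which uses related receptors and Smads, 1 of 12 was higher and 4 lower. Fst (follistatin), a secreted trap for activin, was seen in 29 TSF cells (20.9%, 14.4 to 28.6) and 13 CM cells (44.8%, 26.4 to 64.3), with 0.169 and 0.683 CP10k, a ratio of 0.247. Its CM sum was 19.8 CP10k, which also exceeds that UMI. In the non-Smad branch, the kinases and small GTPases that the receptors also act on, 1 of 9 was higher and 1 lower.

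Target genes known from many cell types were split, with 8 of 28 higher and 11 lower. These were 28.6% and 39.3%, against 16.0% and 29.8% of all genes. The median log2 ratio was -0.23, against -0.19 over all genes. The list was not sorted by whether TGF-beta raises or lowers a gene, so its counts and median do not measure pathway output. The lower genes named by the rule of size were Id1, Id2, Klf10, Il11 and Junb. Id1, an inhibitor of differentiation factors, was at 1.26 CP10k in TSF and 3.28 in CM, a ratio of 0.383, and was seen in 90 and 23 cells. Its relative Id2 was at 0.497 and 1.13 CP10k. Klf10, also named TGF-beta inducible early gene, was at 0.417 and 1.45 CP10k, a ratio of 0.288. Il11, a cytokine of bone and lung metastasis, was seen in 34 TSF cells (24.5%, 17.6 to 32.5) and 17 CM cells (58.6%, 38.9 to 76.5), with intervals that did not overlap, and was at 0.40 and 1.45 CP10k. Junb, a partner in AP-1, was at 11.6 and 24.99 CP10k. The lower genes also held fibronectin (Fn1), a matrix protein, at 12.9 and 20.1 CP10k, which was named after its values were seen. Cdkn1a, another of the lower genes named in that way, was seen in 45 TSF cells (32.4%, 24.7 to 40.8) and 19 CM cells (65.5%, 45.7 to 82.1). The intervals of Cdkn1a did not overlap either, and it was at 0.352 CP10k in TSF and 0.793 in CM.

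The higher genes named by that rule were Col6a1, Ccn2 and Angptl4. Col6a1, a chain of collagen VI, was seen in 107 TSF cells (77.0%, 69.1 to 83.7) and 18 CM cells (62.1%, 42.3 to 79.3), with 2.09 and 0.815 CP10k, a ratio of 2.56. Ccn2 (connective tissue growth factor) was seen in 20 TSF cells (14.4%, 9.02 to 21.3) and 1 CM cell (3.45%, 0.0873 to 17.8), at 0.287 and 0.0141 CP10k. Its intervals overlapped, and its CM mean came from that 1 cell. Angptl4, tied to passage through lung capillaries, was seen in 22 TSF cells (15.8%, 10.2 to 23.0) and listed at 0 in CM, where 0 of 29 cells allows a share of up to 10.3% by the limit of 3 counts and 11.9% by the exact interval, which overlaps that of TSF. Col1a1, a chain of collagen I, was seen in 6 TSF cells (4.32%) and likewise in no CM cell. With 29 CM cells, whether its shares differ could not be told. The higher genes also held Pmepa1, a feedback inhibitor of the pathway, at 0.875 and 0.452 CP10k, named after its values were seen.

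Junb also belongs to the immediate-early genes, which many stimuli switch on quickly, and it was the 1 gene on both lists. The 9 immediate-early genes were all lower in TSF by level, against 59.7% of all genes, and 6 of them by at least 1.5-fold, against 29.8%. By share of cells, 2 of the 9 (Jun and Junb) were higher in TSF. Their levels summed over the 9 genes to 52.6 CP10k in TSF and 120.9 in CM. By ratio the widest gaps of the 9 were those of Atf3, at 2.73 and 17.5 CP10k, and Egr1, at 1.92 and 11.6. The part of the immediate-early genes in the levels of Id1, Klf10, Il11, Smad7 and Skil was not tested.

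**Figure D5:**
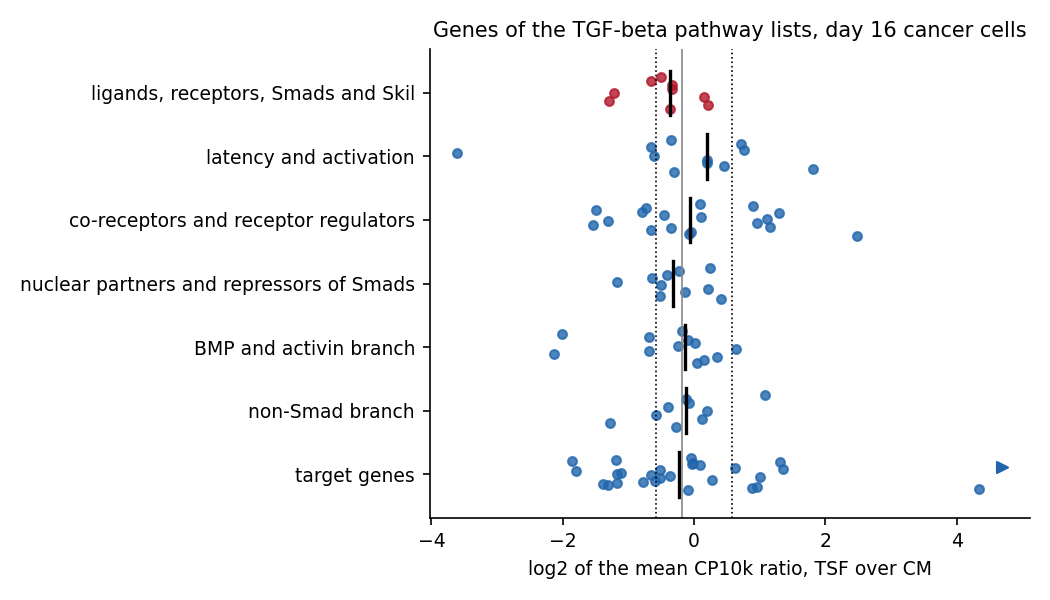
Each point is 1 gene past the minimum, with the log2 ratio of its mean CP10k, TSF over CM, on the x axis and its list on the y axis; short black bars are list medians, the grey line is the median of all genes (-0.19) and dotted lines mark 1.5-fold. The arrowhead is Angptl4, listed at 0 in CM, and no gene of the top list lies past the right dotted line.

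The deposited gene sets with TGF in their name held between 3 and 10 of the core genes each, so they are not separate from the values above. There were 15 such sets, with 8 to 118 genes past the minimum. Their median log2 ratios ran from -0.39 to 0.05, and 14 of 15 lay below that of all genes. The share of genes higher by at least 1.5-fold was below that of all genes in 13 of 15 sets. For the pooled wider pathway it was above, at 21.2%, but its lists were split. Latency and activation (27.3%), co-receptors and receptor regulators (33.3%) and target genes (28.6%) were above all genes. Nuclear partners and repressors (0%), the BMP and activin branch (8.33%) and the non-Smad branch (11.1%) were below. Across the 15 sets the share lower by at least 1.5-fold ran from 20.0% to 38.5% and was above that of all genes in 8. The 1 set with a median above that of all genes was the one for TGF-beta receptor signalling in the epithelial to mesenchymal transition, with 3 of 15 genes higher and 3 lower.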

How the data were processed

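Libraries were 10x Genomics 5' libraries of dissociated lungs. Per the methods, the authors mapped reads to mm10 (GRCm38.p6) with CD90.1 added, removed ambient RNA with a customised SoupX and classed cells by clustering, with clusters of mixed markers left out as multiplets and no doublet removal among cancer cells; the submitters' processing notes name Cell Ranger and Seurat 4.1.0. The deposited table of day 16 cancer cells holds, per gene and library, mean signal as CP10k, the number of cells with a UMI and that number as a percent; the deposited cell table holds total UMI counts and the percent of mitochondrial UMIs. Columns and a file of the authors' own comparisons (fold changes, p-values, enrichment scores) were not used, nor were 2 library names of the cell table that matched no sample.

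Ratios of mean CP10k, shares with exact Clopper-Pearson 95% intervals and counts past a 1.5-fold ratio were computed with pandas 2.3.3 and scipy 1.17.1 under Python 3.11.15 among genes with a UMI in at least 10% of cells of either library, and the scripts were tested on simulated data. Where no cell had a UMI, 3 cells of the total were taken as the highest share compatible with counting error. There was no test, each group having 1 library. Gene positions are from GENCODE M21. Members and lists were chosen with earlier results of these data known. Named pathway genes were, of those with a ratio of at least 2 or at most 0.5, the 6 per direction with the largest difference of log2(CP10k + 1), with Col1a1 and Col6a1 added. Alternatives changed the scaling, pseudocount, measure, minimum and fold.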

Additional observations from a re-analysis of the deposited data

How the results depend on the processing

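Both scalings tried left the same 2 of 9 core genes (Tgfb3 and Tgfbr2) higher in TSF. Leaving ribosomal protein and mitochondrial genes out of the total moved the median log2 ratio of all genes by 0.10, and centring moved it by 0.19. The direction of Tgfbr1 reversed with the ratio of shares (1.30). The number of core genes lower by at least 1.5-fold, 3, was 0 with a pseudocount of 1 CP10k, 0 by the ratio of shares and 7 at a smaller fold, the lowest tried. Among all genes the lower share, 29.8%, went to 1.95%, 12.7% and 42.8% in these settings. Of the wider pathway, the 18 genes higher became 3 with a pseudocount of 1, 9 by shares, 10 per cell with a UMI and 10 at a fold of 2, while the share of all genes higher went from 16.0% to 0.755%, 11.3%, 7.02% and 8.09%. The 26 lower became 17 with centring, 6 with a pseudocount of 1, 10 by shares, 16 per cell with a UMI and 15 at a fold of 2, while that of all genes went to 22.2%, 1.95%, 12.7%, 19.3% and 15.7%. The counts thus moved in the same direction as the shares of all genes, but not always in proportion. At the smaller fold 7 of the 9 core genes were lower, against 42.8% of all genes. With a pseudocount of 1, 3 of the 85 wider pathway genes were higher and 6 lower, against 0.755% and 1.95%. Other settings kept these counts within 1.5 times. No paired analysis was possible because each group had 1 library and no result came from a test. For the same reason no replicate could be left out. The number of CM cells, 29, and their depth limit the shares, and a UMI in the CM cell of 973 UMIs limits the means.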
